A study of Arabidopsis thaliana with 24 samples.

Results

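The nuclear photosynthesis genes of Arabidopsis thaliana were taken as 50 loci chosen by name: the LHCA and LHCB antenna genes, nuclear PSA and PSB genes of photosystem I and photosystem II, the Rubisco small subunit genes RBCS, Rubisco activase RCA, and GAPA1 and GAPB. They are 50 of the 33341 loci counted in 12 mRNA libraries. They were sorted by product into 6 photosystem I antenna genes, 15 photosystem II antenna genes, 12 photosystem I subunit genes, 10 photosystem II subunit genes and 7 Rubisco and Calvin cycle genes. The libraries form 4 groups of 3: rh27-2 shoot apices, wild-type (WT, Col-0) shoot apices, rh27-2 root tips and WT root tips. rh27-2 is a line of the DEAD-box RNA helicase gene RH27, and the study asked how RH27 affects microRNAs and their targets. All seedlings were grown at 21 to 22 °C in 16 h light and 8 h dark, on medium with 1% sucrose, and were sampled 5 days after germination. The labels do not give the nature of the rh27-2 allele, the number of plants pooled in a library, or how replicates were grown. The p-values therefore measure the spread between libraries, which may be technical.

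Light-harvesting proteins bind chlorophyll and pass light energy to the photosystems: LHCA proteins serve photosystem I, and LHCB proteins serve photosystem II. The reaction centre cores are encoded in the chloroplast genome, while the nucleus encodes the antenna and many outer subunits, including the oxygen-evolving proteins PSBO, PSBP and PSBQ. Rubisco fixes carbon dioxide with small subunits from the nuclear RBCS genes, RCA reactivates Rubisco, and the GAPA and GAPB proteins form the glyceraldehyde-3-phosphate dehydrogenase of the Calvin cycle. In green tissue the nuclear genes are switched on by light and as the chloroplast develops, with the transcription factors GLK1 and GLK2 among their activators.

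The libraries held 15603992 to 20380109 counts. RH27 (AT5G65900) stood at 12.6, 14.9 and 13.7 CPM in rh27-2 root tips, against 25.5, 24.5 and 21.8 CPM in WT root tips, where CPM is the count after scaling to library size with TMM factors over the 12 libraries. The root groups did not overlap, and the fold change was -0.80 ± 0.09 on the log2 scale (SE, edgeR quasi-likelihood test, Benjamini-Hochberg adjusted p = 8.47e-06). In shoot apices RH27 had 25.8, 26.8 and 24 CPM in rh27-2, against 34.6, 26.8 and 30.8 CPM in WT, a log2 difference of -0.33 ± 0.12 that did not pass the 0.05 threshold (adjusted p = 0.0712). The 50 genes took 4.06%, 2.23% and 1.95% of the counts in rh27-2 shoot apices and 6.10 to 6.33% in WT shoot apices. In root tips they took 0.0276 to 0.0622% of the counts in rh27-2 and 0.0414 to 0.05% in WT. Library 1 of rh27-2 stood apart from its group in both organs: it was the highest of the 3 for 46 of 49 genes in shoot apices and for 44 of 49 genes in root tips.

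LHCB1.5 (AT2G34420), a member of the main LHCB1 antenna family, was listed at 0 in all 12 libraries. Its whole span lies within a long noncoding RNA locus in the TAIR10.1 annotation, which is also listed at 0. Whether reads that overlap both loci were set aside is not given in the sources used here, so no level is given for LHCB1.5. A further 18 of the 50 genes overlap another listed locus at part of their span, among them PSAG, PSAH1, PSAH2, PSAE1, LHCB2.3 and LHCB6. The strand of counting is not given, so reads of such pairs cannot be told apart and these levels may be understated. LHCB1.1, LHCB1.2 and LHCB1.3, the pair LHCB1.4 and LHCB1.5, the pair LHCB2.1 and LHCB2.2, and the trio RBCS1B, RBCS2B and RBCS3B are near-identical in sequence, so values of single genes in them are uncertain and their sums are given too.

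WT root tips held these genes at low levels relative to WT shoot apices. All 49 genes with counts were lower in WT root tips (39.2% of all tested genes were called lower there), with a median log2 fold change of -7.26 and -0.05 over all tested genes. The median of the 49 was also -7.26 with the 3 genes that had no WT root count (LHCA6, LHCB2.2 and PSAG) set at their bound. The smallest differences belonged to LHCB7 and LHCB4.3, minor antenna relatives, whose root levels were 11.8% and 11% of their shoot levels in WT, and to PSBR, a subunit near the oxygen-evolving complex, at 5.42%. Per kb of annotated gene span, introns included, LHCB1.3 had the highest mean level in WT shoot apices at 9563 CPM per kb, followed by RBCS1A at 5240, RBCS3B at 1913 and PSBR at 1817 CPM per kb. In WT root tips PSBR led with 98.4 CPM per kb, ahead of PSBO1 at 25.4, LHCB1.3 at 24.4 and RBCS1A at 7.43 CPM per kb.

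In rh27-2 shoot apices the photosynthesis genes were lower as a group, most of all the antenna genes. Of 49 tested genes 37 fell and none rose (19.8% of all tested genes were called lower and 21.1% higher). No gene rose by DESeq2 either, which called 22% of all tested genes higher. The 37 genes with an unadjusted p below 0.05 in edgeR were the 37 that fell, beside 9708 of 18972 tested genes with such a p. All 3 rh27-2 libraries lay below all 3 WT libraries for 36 of the 49 genes (24.4% of all tested genes), and for none did they lie above (30.5% of all tested genes). The median log2 fold change was -0.99, against -0.02 over all tested genes. By class, 12 of 14 photosystem II antenna genes fell with a class median of -1.76, 5 of 6 photosystem I antenna genes with -1.38, 12 of 12 photosystem I subunit genes with -0.97, 7 of 10 photosystem II subunit genes with -0.78, and 1 of 7 Rubisco and Calvin cycle genes with -0.45. The class medians are descriptions and their differences were not tested. Fewer green cells and less RNA per cell cannot be told apart in such bulk samples.

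The replicate numbers were taken to pair the shoot libraries, since deviations of same-numbered libraries from their group means correlated at 0.42, 0.38 and 0.15. For number 3 this is uncertain: rh27-2 library 3 correlated more with WT library 2, at 0.27. Results by block or by pair rest on that assumption. With the replicate number as a block, 45 of the 49 genes fell (22.7% of all tested genes), and the count in the Rubisco and Calvin cycle class was 4 of 7. Within pairs, 47 of the 49 genes were lower in rh27-2 in 3 of 3 pairs, with median log2 ratios of -0.56, -1.24 and -1.295 in pairs 1, 2 and 3. For the 36 genes whose groups did not overlap, this was fixed under any pairing. The share of all tested genes lower in every pair was not computed, so the 47 is a description only. The number of genes called lower was 42 without rh27-2 shoot library 1, 20 without library 2 and 22 without library 3. The share of all tested genes called lower was 18.8%, 10.2% and 12% in these fits. Of the 37 calls, 20 held whichever single library was left out.

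**Figure D1:**
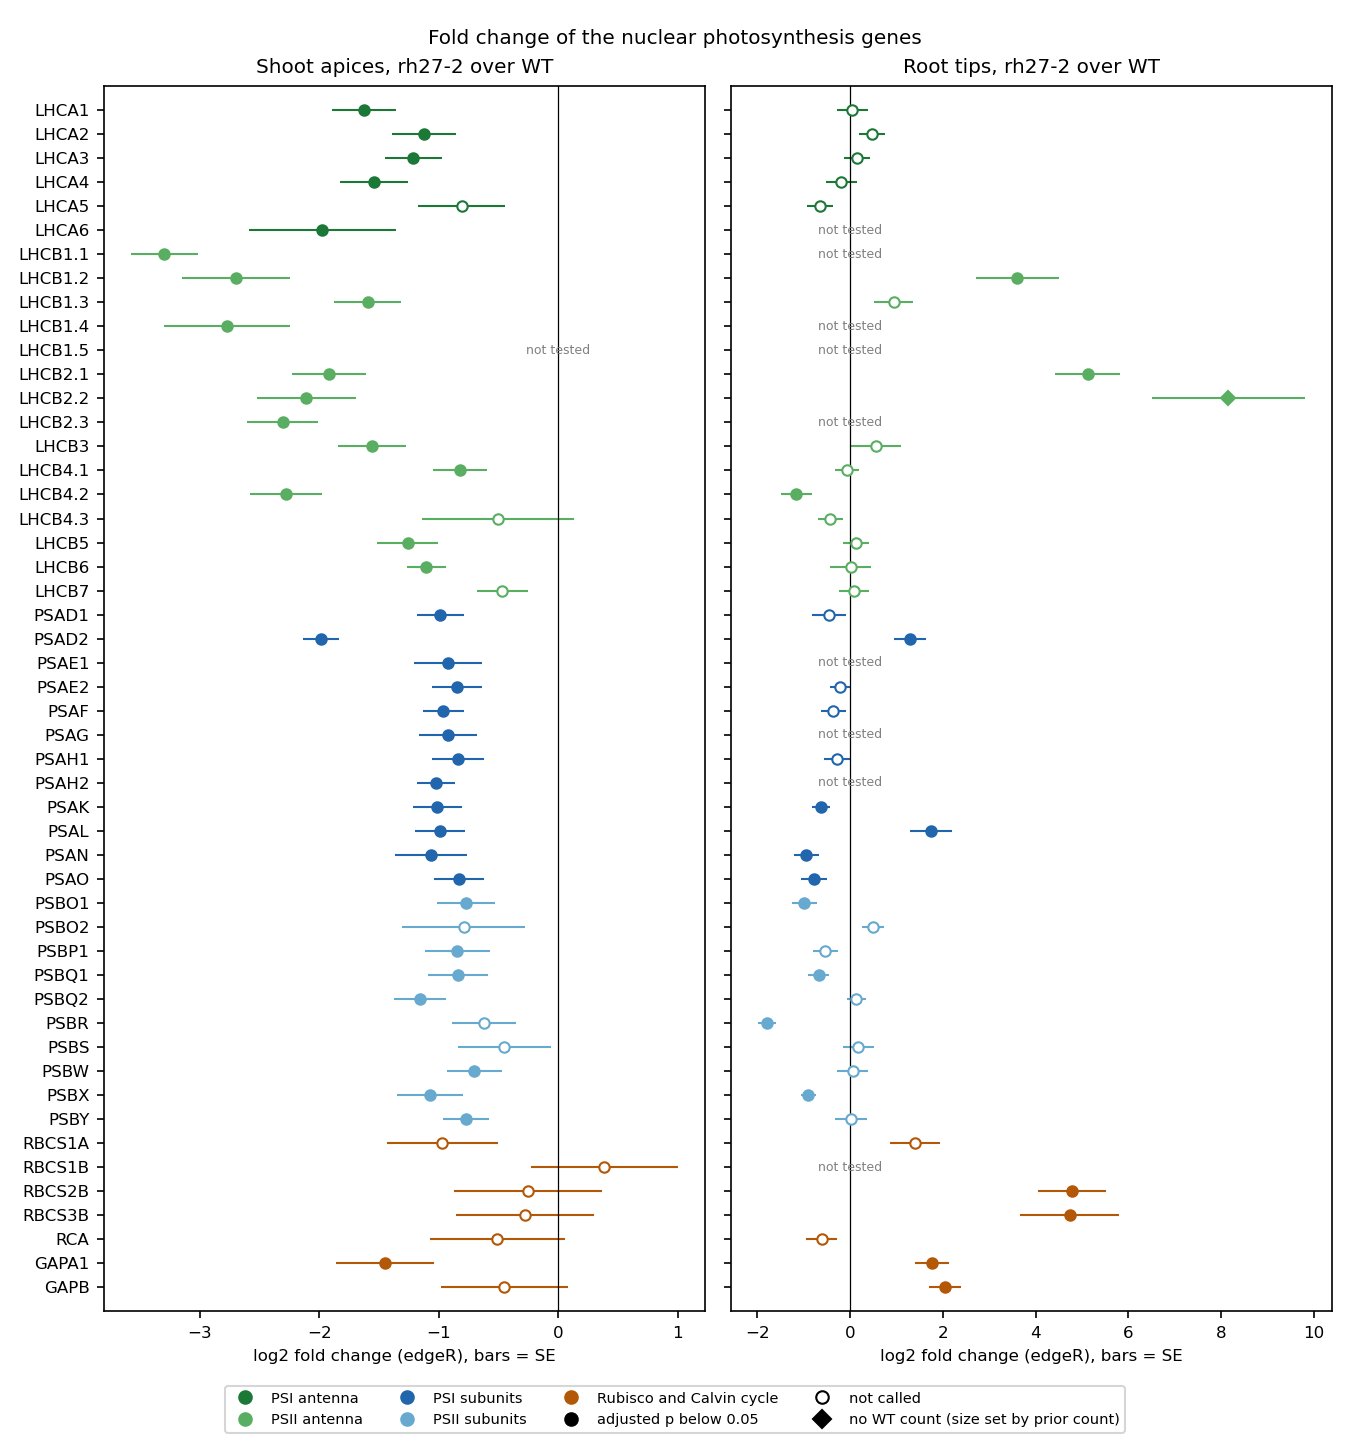
Log2 fold change of each gene in rh27-2 over WT, in shoot apices (left panel) and root tips (right panel), with bars of 1 SE; colours give the class and filled symbols have an adjusted p below 0.05. In shoot apices 37 of 49 genes are filled and all of these lie left of 0, while in root tips 9 filled symbols lie right and 8 lie left of 0; the diamond is LHCB2.2, which had no WT root count, so its plotted size depends on the prior count of the fit.

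**Figure D2:**
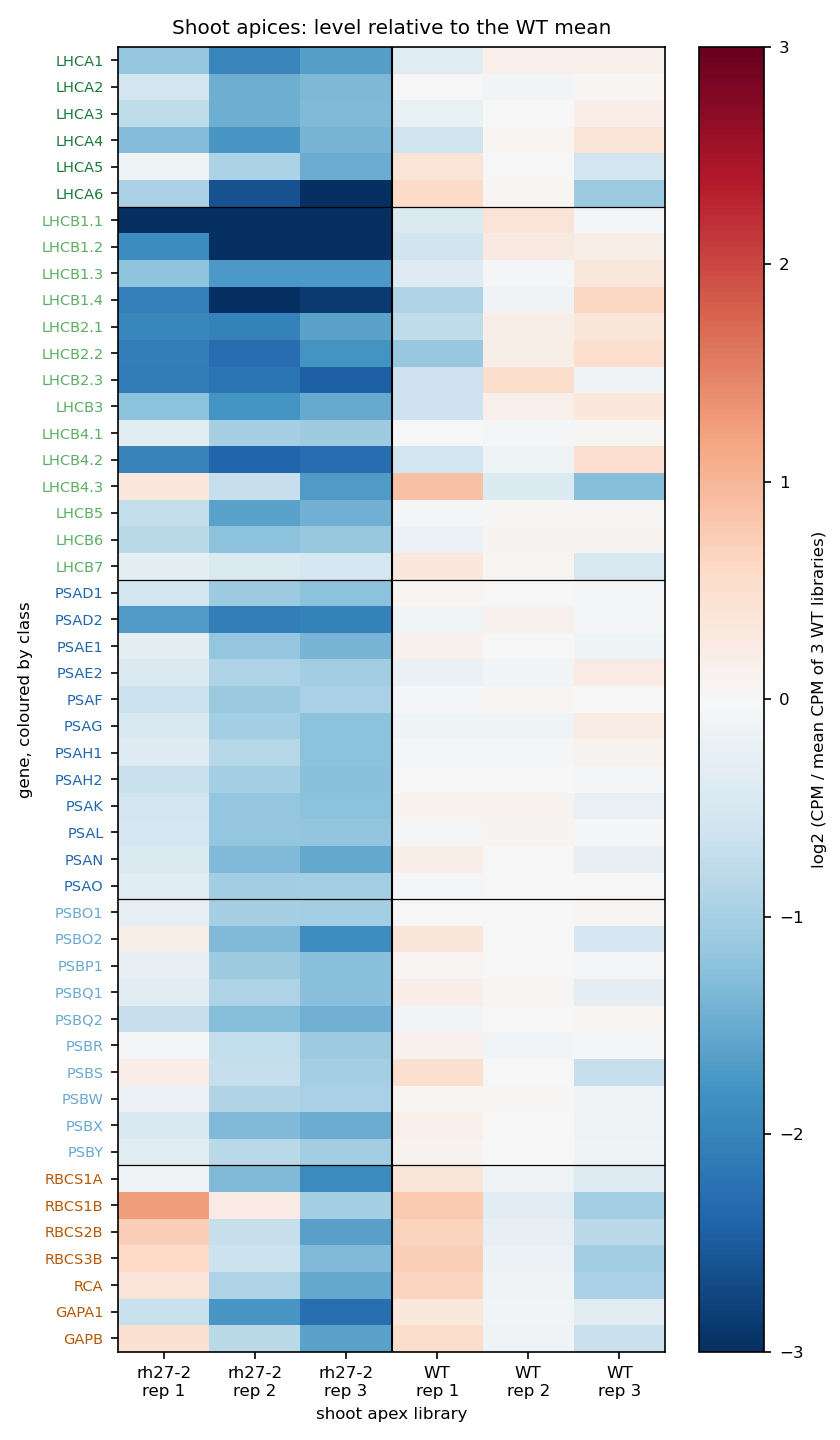
Level of 49 genes in each shoot apex library as log2 of its CPM over the mean CPM of the 3 WT libraries, with rh27-2 libraries on the left and WT libraries on the right; the colour scale ends at -3 and 3, and lines part the 5 classes. The antenna genes LHCB1.1, LHCB1.2 and LHCB1.4 are darkest blue in rh27-2, and in the bottom block of Rubisco and Calvin cycle genes library 1 is highest and library 3 lowest in both genotypes.

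The photosystem I antenna is built from LHCA1 to LHCA4, of which LHCA4 had the most counts. LHCA4 had 780, 576 and 734 CPM in rh27-2 shoot apices, against 1288, 2011 and 2513 CPM in WT shoot apices. The groups did not overlap, and the log2 fold change was -1.54 ± 0.28 (adjusted p = 0.00629). LHCA1, its partner in the antenna dimer, had 639, 360 and 452 CPM in rh27-2 shoot apices, against 1109, 1587 and 1584 CPM in WT, and fell by 1.62 ± 0.27 on the log2 scale (adjusted p = 0.00441). LHCA3 and LHCA2 fell by 1.21 and 1.12, though LHCA2 was not called without rh27-2 library 2 or 3. LHCA6 and LHCA5 are less abundant relatives. LHCA6, which helps link photosystem I to the NAD(P)H dehydrogenase complex, had 17.2, 5.47 and 3.86 CPM in rh27-2, against 49.6, 35.1 and 15.8 CPM in WT. Its groups overlapped, its log2 fold change was -1.97 ± 0.62 (adjusted p = 0.0396), and the call was lost without rh27-2 library 2 or 3 or WT library 1 or 2. LHCA5, which has the same linking role, had 61.9, 35.9 and 24.4 CPM in rh27-2 and 89.9, 69.7 and 46.8 CPM in WT, with a log2 difference of -0.81 ± 0.36 that passed only with the replicate block (adjusted p = 0.113 without it and 0.00331 with it).

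The lowest fold changes of all in shoot apices were those of LHCB1.1, LHCB1.4, LHCB1.2 and LHCB2.3, followed by LHCB4.2. The LHCB1 and LHCB2 genes encode the trimeric light-harvesting complex of photosystem II, the bulk of the antenna. LHCB1.1 (AT1G29920) had 199, 143 and 211 CPM in rh27-2 shoot apices, against 1293, 2251 and 1661 CPM in WT. Every WT library was far above every rh27-2 library, and the log2 fold change was -3.30 ± 0.28 (adjusted p = 0.000596). LHCB1.4 (AT2G34430) had 135, 44.6 and 76.6 CPM in rh27-2 and 296, 519 and 852 CPM in WT, again without overlap, and fell by 2.77 ± 0.53 (adjusted p = 0.0073). LHCB1.3, the antenna gene with the most counts, had 5103, 3554 and 3567 CPM in rh27-2 and 8943, 11338 and 15008 CPM in WT. Again the groups did not overlap, and the log2 fold change was -1.59 ± 0.28 (adjusted p = 0.00559), nearer 0 than in LHCB1.1 and LHCB1.2. LHCB1.2 had 414, 154 and 177 CPM in rh27-2, against 1024, 1856 and 1745 CPM in WT, without overlap, and fell by 2.70 ± 0.45 (adjusted p = 0.0046). Summed, LHCB1.1, LHCB1.2 and LHCB1.3 reached 4507 ± 1048 CPM in rh27-2 and 15039 ± 3594 CPM in WT shoot apices (SD, n = 3 each), so that rh27-2 stood at 30.0% of WT.

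LHCB2.1 had 181, 174 and 231 CPM in rh27-2 shoot apices, against 415, 795 and 897 CPM in WT. Its groups did not overlap, and the log2 fold change was -1.92 ± 0.31 (adjusted p = 0.00406). LHCB2.2 and LHCB2.3 fell by 2.11 and 2.31 on the log2 scale, and the sum of LHCB2.1 and LHCB2.2 was 26.1% of the WT value in rh27-2 shoot apices. LHCB3, the remaining trimer gene, fell by 1.56 ± 0.29. The minor antenna genes LHCB4.1, LHCB5 and LHCB6, whose monomers connect the trimers to the core, fell by 0.82, 1.26 and 1.11. LHCB4.2, a paralogue of LHCB4.1, had 195, 150 and 162 CPM in rh27-2, against 525, 711 and 1114 CPM in WT, and fell by 2.28 ± 0.30 (adjusted p = 0.00216). LHCB4.1 was called lower only with both rh27-2 libraries 2 and 3 in the fit. The weakly expressed LHCB4.3 and LHCB7 were not called, at -0.50 ± 0.64 and -0.47 ± 0.21, and LHCB7 had 8.87, 8.12 and 7.58 CPM in rh27-2 and 13.6, 11.4 and 7.75 CPM in WT. The groups of LHCB7 overlapped. With the replicate block LHCB4.3 passed at -0.48 (adjusted p = 0.0366) and LHCB7 did not (adjusted p = 0.0742).

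Photosystem I subunit genes were the class with a call for every gene, and 11 of the 12 log2 fold changes lay between -1.07 and -0.83. The exception was PSAD2 (AT1G03130), which encodes the ferredoxin-docking subunit PsaD together with PSAD1. PSAD2 had 75.2, 57.6 and 59.2 CPM in rh27-2 shoot apices, against 228, 265 and 235 CPM in WT. No library came near the other group, and the log2 fold change was -1.98 ± 0.15 (adjusted p = 0.00044). PSAD1 had 422, 290 and 266 CPM in rh27-2 and 649, 619 and 590 CPM in WT, a log2 fold change of -0.99 ± 0.20 (adjusted p = 0.00829). PSAF, a plastocyanin-docking subunit and the gene of the class with the most counts, had 780, 564 and 620 CPM in rh27-2 and 1173, 1277 and 1216 CPM in WT, with a log2 fold change of -0.96 ± 0.17 (adjusted p = 0.00538). PSAN, which also lies on the plastocyanin side, had 532, 286 and 248 CPM in rh27-2 and 821, 719 and 608 CPM in WT, a decrease of 1.07 ± 0.30 that was lost without rh27-2 library 2 or 3 or WT library 1 or 2. PSAO, at the docking site for mobile antenna, showed the smallest change of the class at -0.83 ± 0.21, with 394, 243 and 247 CPM in rh27-2 and 493, 507 and 509 CPM in WT. The rh27-2 and WT libraries of all these 5 genes did not overlap.

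Photosystem II subunit genes had log2 fold changes from -1.16 to -0.45. PSBQ2, of the oxygen-evolving complex, had 408, 270 and 244 CPM in rh27-2 shoot apices, against 624, 666 and 682 CPM in WT, with a log2 fold change of -1.16 ± 0.22 (adjusted p = 0.00671). PSBX, a small membrane subunit, had 305, 169 and 149 CPM in rh27-2 and 465, 416 and 381 CPM in WT, and fell by 1.07 ± 0.27 (adjusted p = 0.02). Both genes had separate groups. PSBO1, the main manganese-stabilising protein, had 1768, 1040 and 1024 CPM in rh27-2 and 2060, 2075 and 2137 CPM in WT, and its log2 fold change of -0.77 ± 0.24 passed narrowly (adjusted p = 0.041). Without rh27-2 library 2 or without library 3, 1 of the 10 genes was called lower, a share like the 10.2% and 12% of all tested genes in these fits. PSBQ2 was the only member of the class whose call held whichever library was left out. PSBO2, PSBR and PSBS were not called. PSBS, the sensor of energy-dependent quenching, had 1002, 539 and 429 CPM in rh27-2 and 1205, 860 and 535 CPM in WT, so the groups overlapped, and its difference was -0.45 ± 0.39 (adjusted p = 0.379). With the replicate block all 3 of these genes passed, at -1.03, -0.68 and -0.48 for PSBO2, PSBR and PSBS.

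The Rubisco and Calvin cycle genes had the widest spread between shoot libraries. The median coefficient of variation of the 7 genes was 70.0% in rh27-2 and 52.6% in WT, against 26.5% and 7.48% for photosystem I subunit genes. In both genotypes every one of the 7 genes was highest in library 1 and lowest in library 3. GAPA1 was the only one called lower. It had 820, 388 and 271 CPM in rh27-2, against 1625, 1231 and 1036 CPM in WT, without overlap, and its log2 fold change was -1.45 ± 0.41 (adjusted p = 0.0283). That call was lost without rh27-2 library 2 or 3 or WT library 1. GAPB, its partner subunit, had 1286, 534 and 306 CPM in rh27-2 and 1350, 869 and 590 CPM in WT, which overlapped, with a log2 difference of -0.45 ± 0.53 (adjusted p = 0.521). RCA had 3634, 1472 and 961 CPM in rh27-2 and 4354, 2583 and 1419 CPM in WT, also with overlap, at -0.51 ± 0.56 (adjusted p = 0.495). With the replicate block GAPB and RCA were called lower, at -0.63 and -0.61 (adjusted p = 0.0484 and 0.04).

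The Rubisco small subunit genes differed among themselves in shoot apices. RBCS1A, the one with the most counts, had 7326, 3144 and 2103 CPM in rh27-2 and 10240, 7414 and 6082 CPM in WT. It was lower in rh27-2 in each same-numbered pair, with log2 ratios of -0.48, -1.24 and -1.53, and its fitted difference of -0.97 ± 0.47 passed with the block only (adjusted p = 0.135 without it and 0.0148 with it). RBCS1B had 716, 357 and 151 CPM in rh27-2 and 520, 238 and 149 CPM in WT, and was the only one of the 49 genes with a positive log2 difference, at 0.39 ± 0.62 (adjusted p = 0.64). Each rh27-2 library of RBCS1B was above its same-numbered WT library. RBCS2B and RBCS3B stood at -0.25 ± 0.62 and -0.28 ± 0.58 and were called neither with nor without the block. The sum of RBCS1B, RBCS2B and RBCS3B was 4031 ± 2899 CPM in rh27-2 and 4536 ± 2597 CPM in WT (SD, n = 3 each).

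Summed over each class, the antenna genes lost the larger part of their transcripts in rh27-2 shoot apices. The photosystem II antenna sum was 7742 ± 1834 CPM in rh27-2 and 23405 ± 5240 CPM in WT, or 33.1% of WT, and the photosystem I antenna sum was 40.4% of WT. The sums of photosystem I subunits, photosystem II subunits, and Rubisco and Calvin cycle genes were 52.2%, 61.8% and 65.5% of WT. The 5 class sums of the 3 rh27-2 libraries lay below those of all WT libraries except in the Rubisco and Calvin cycle class. There rh27-2 library 1 reached 20364 CPM against 11421 CPM in WT library 3. Libraries 2 and 3 of rh27-2 had 8563 and 5409 CPM in that class, so its 65.5% rests largely on library 1. The ratio of summed antenna to summed photosystem subunit transcripts was 1.07, 1.13 and 1.35 in rh27-2, against 1.42, 2.00 and 2.48 in WT shoot apices, so the groups did not overlap. The ratio of antenna to Rubisco and Calvin cycle transcripts was 0.646, 0.994 and 1.70 in rh27-2 and 0.922, 1.91 and 3.11 in WT. These groups overlapped, and within each same-numbered pair the rh27-2 value was the lower. A permutation of 3 against 3 libraries cannot give a p below 0.1, so the ratios are given as values only.

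**Figure D3:**
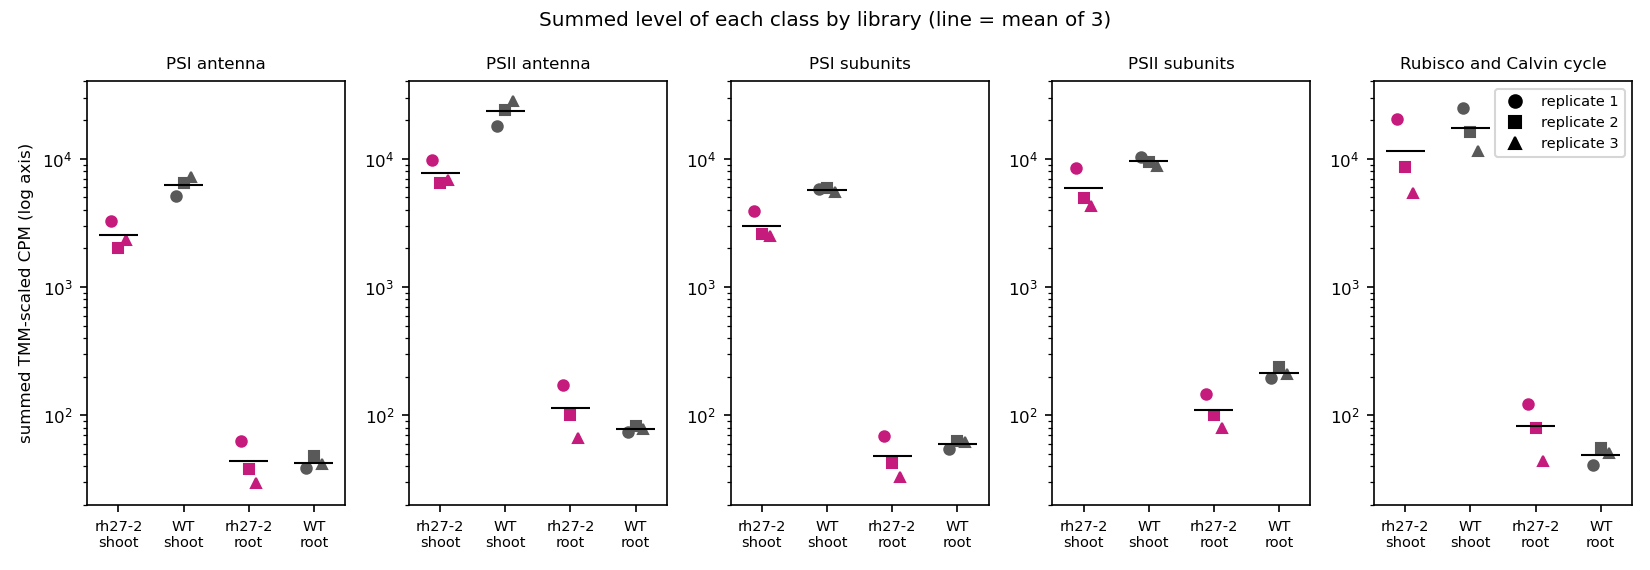
Summed level of each class in each of the 12 libraries, in TMM-scaled CPM on a log axis, with rh27-2 left of WT within shoot apices and within root tips; symbols give the replicate number and lines the mean of 3. Antenna sums of rh27-2 shoot apices average 33.1% (photosystem II) and 40.4% (photosystem I) of WT, and in root tips the 3 rh27-2 libraries spread over a wider range than the 3 WT libraries in every class.

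In root tips the genes moved in both directions. Of 41 tested genes 9 rose and 8 fell in rh27-2 (31.3% of all tested genes were called higher and 30.9% lower), so the 17 calls among 41 genes were a smaller share than the 62.1% called in either direction over all genes. The median log2 fold change was 0.05, also with LHCB2.2 at its bound, and 0.01 over all tested genes. The rh27-2 libraries lay above all WT libraries for 10 genes and below for 6 of the 41 (34.6% and 33.5% of all tested genes). Of the 9 genes that rose, LHCB1.2, LHCB2.1, LHCB2.2, PSAD2, RBCS2B and RBCS3B passed the low-count filter through their rh27-2 libraries only, so a difference was built into their being tested. The other 9 of the 50 genes were too low to test: LHCA6, LHCB1.1, LHCB1.4, LHCB1.5, LHCB2.3, PSAE1, PSAG, PSAH2 and RBCS1B.

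Counts of calls in root tips hung on single libraries. Without rh27-2 root library 1, which was the highest for most genes, 9 genes rose and 17 fell (30.2% of all tested genes were then called higher and 29.9% lower), and without library 3 the counts were 16 and 7 (29.2% and 28.5%). The number called lower was 2 without rh27-2 library 2 (28.3% of all tested genes), and 5, 3 and 3 without WT library 1, 2 and 3 (27.8%, 28.3% and 28%). The 9 calls that held whichever library was left out were GAPA1, GAPB, LHCB1.2, LHCB2.1, LHCB2.2, PSAD2 and RBCS2B among the genes that rose, and PSBR and PSBX among those that fell. For LHCB1.2, LHCB2.1, LHCB2.2, PSAD2 and RBCS2B a rise was built in by the low-count filter, so their holding adds no support. LHCB1.2 was also not called when summed with its near-identical copies.

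**Figure D4:**
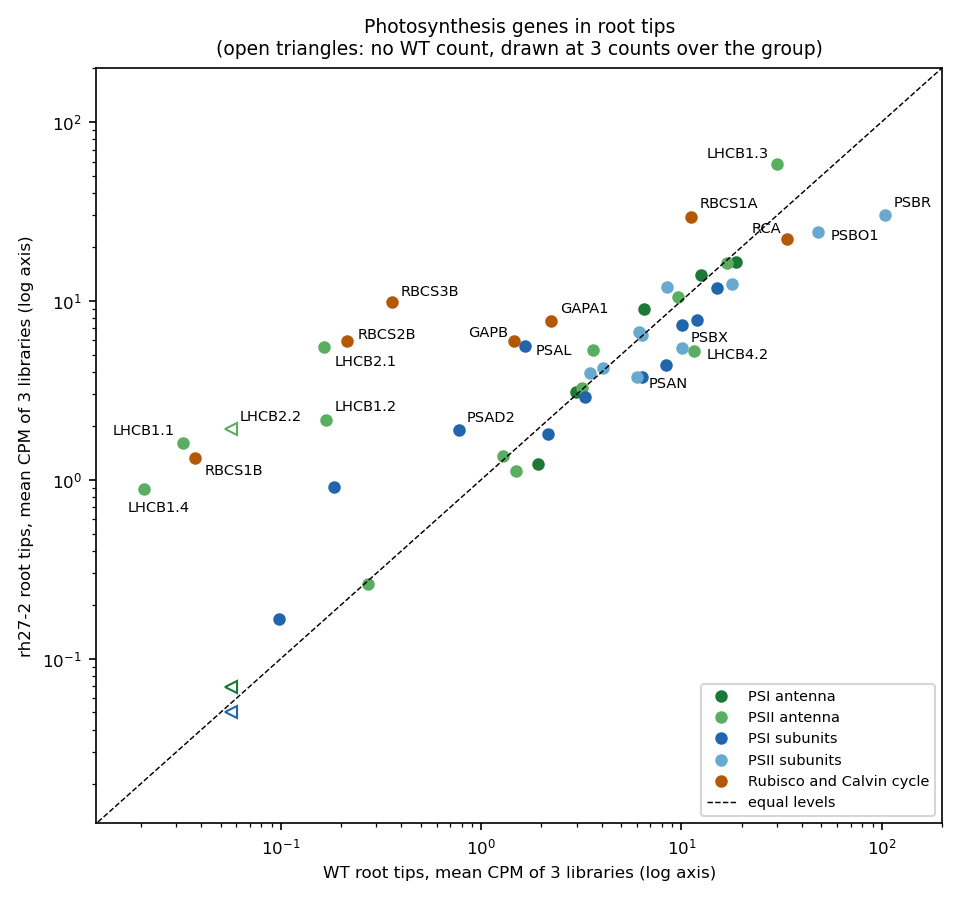
Mean CPM of each gene in 3 rh27-2 root tip libraries (vertical log axis) against its mean in 3 WT root tip libraries (horizontal log axis), coloured by class, with a dashed line of equal levels and gene names beside the genes described. RBCS2B, RBCS3B, LHCB2.1 and LHCB2.2 lie far above the line at under 1 CPM in WT, while PSBR, at 104 CPM in WT, lies below it; open triangles had no WT count and are drawn at the level that 3 counts in the WT group would give.

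The Rubisco and Calvin cycle class had 4 genes that rose and none that fell among 6 tested in root tips, beside 31.3% and 30.9% of all tested genes. Of the 4, RBCS2B and RBCS3B passed the low-count filter through their rh27-2 libraries only. RBCS3B had 18.8, 6.15 and 4.41 CPM in rh27-2 root tips, against 0.390, 0.624 and 0.0605 CPM in WT, and RBCS2B had 6.98, 8.27 and 2.65 CPM in rh27-2, against 0.146, 0.437 and 0.0605 CPM in WT. For both genes every rh27-2 library was above every WT library, with log2 fold changes of 4.74 ± 1.07 (adjusted p = 0.0152) and 4.79 ± 0.73 (adjusted p = 0.00128), although the RBCS3B call was lost without WT library 1 or 3. RBCS1B had 76 counts in the 3 rh27-2 libraries and 2 in the WT libraries, a ratio of 34.3 after scaling with a 95% interval of 9.17 to 288 that covers counting error only. The sum of these 3 genes was 17.1 ± 10.3 CPM in rh27-2 and 0.610 ± 0.502 CPM in WT root tips (SD, n = 3 each). RBCS1A, which supplied most Rubisco small subunit counts in WT root tips, had 42.1, 34.2 and 12.2 CPM in rh27-2 and 8.54, 12.2 and 12.9 CPM in WT. Its groups overlapped and it was not called, at 1.399 ± 0.55 (adjusted p = 0.0852). RBCS1A was called higher by DESeq2 (adjusted p = 0.0222) and in the edgeR fit of 12 libraries (adjusted p = 0.0423).

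GAPA1 had 11.2, 7.60 and 4.27 CPM in rh27-2 root tips, against 2.24, 2.06 and 2.42 CPM in WT, and GAPB had 8.66, 5.22 and 4.02 CPM in rh27-2, against 1.12, 1.25 and 2.00 CPM in WT. Neither gene's groups overlapped. Their log2 fold changes were 1.77 ± 0.37 (adjusted p = 0.00437) and 2.04 ± 0.34 (adjusted p = 0.000688). RCA went the other way without passing, with 32.8, 17.2 and 16.1 CPM in rh27-2 and 28.2, 38.6 and 33.7 CPM in WT, at -0.61 ± 0.33 (adjusted p = 0.18). Without rh27-2 library 1, RCA was called lower at -1.01.

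Among the photosystem II antenna genes of root tips, 3 rose and 1 fell out of 11 tested, beside 31.3% and 30.9% of all tested genes. The 3 that rose passed the low-count filter through their rh27-2 libraries only. LHCB2.1 had 8.24, 5.06 and 3.29 CPM in rh27-2, against 0, 0.375 and 0.121 CPM in WT, a log2 fold change of 5.12 ± 0.70 (adjusted p = 0.000522). LHCB2.2 had 3.46, 1.395 and 0.883 CPM in rh27-2 and no count in WT, which makes it at least 33.4-fold higher by the floor of 3 counts over the group (adjusted p = 0.00944). Every rh27-2 library held LHCB2.1 and LHCB2.2 reads, with library 1 the highest. LHCB1.2 had 3.93, 1.91 and 0.638 CPM in rh27-2, against 0.195, 0.250 and 0.0605 CPM in WT, and rose by 3.61 ± 0.90 (adjusted p = 0.0104). Summed with its near-identical copies it was not called, at 1.02 (adjusted p = 0.108), since LHCB1.3, with 86.5, 56.0 and 31.0 CPM in rh27-2 and 28.7, 30.7 and 30.6 CPM in WT, did not pass at 0.94 ± 0.42 (adjusted p = 0.115). The groups of LHCB1.3 were apart by less than 1 CPM at their closest.

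LHCB1.1 and LHCB1.4 were below the filter in root tips and rested on rh27-2 library 1: LHCB1.1 had 4.09, 0.258 and 0.441 CPM in rh27-2 and 0.0976, 0 and 0 CPM in WT, and LHCB1.4 had 2.62, 0.0517 and 0 CPM in rh27-2 and 0, 0.0624 and 0 CPM in WT. LHCB4.2 fell, with 8.24, 3.88 and 3.58 CPM in rh27-2, against 12.4, 12.9 and 9.43 CPM in WT, at -1.16 ± 0.33 (adjusted p = 0.0217). Its groups did not overlap, and the call was lost without rh27-2 library 2 or WT library 1 or 2. LHCB4.3 had 1.102, 0.930 and 1.32 CPM in rh27-2 root tips, against 1.71, 1.31 and 1.45 CPM in WT, with groups that overlapped narrowly, and was not called at -0.42 ± 0.27 (adjusted p = 0.192). None of the 5 tested photosystem I antenna genes was called in root tips by edgeR or by DESeq2. Over all tested genes, edgeR called 62.1% in either direction, and DESeq2 called 24.5% higher and 23.7% lower. Of the 5 genes 1 had an unadjusted p below 0.05 in edgeR, beside 12764 of 19443 tested genes. Their log2 differences ran from -0.65 ± 0.28 for LHCA5 (1.63, 0.930 and 1.13 CPM in rh27-2 and 1.81, 1.62 and 2.36 CPM in WT) to 0.48 ± 0.28 for LHCA2 (12.8, 8.42 and 5.93 CPM in rh27-2 and 5.56, 7.12 and 6.83 CPM in WT). LHCA4 had 24.6, 13.4 and 11.6 CPM in rh27-2 root tips, against 16.1, 22.2 and 18.1 CPM in WT. Its rh27-2 libraries lay on both sides of the WT libraries, and its log2 difference was -0.19 ± 0.33 (adjusted p = 0.656).

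Of 19 tested photosystem subunit genes in root tips 7 fell, beside 30.9% of all tested genes. PSBR (AT1G79040) had 38.6, 27.0 and 25.0 CPM in rh27-2 root tips, against 95.4, 119 and 97.9 CPM in WT. Its groups were far apart, and the log2 fold change was -1.79 ± 0.19 (adjusted p = 0.000548). PSBX had 6.35, 5.84 and 4.17 CPM in rh27-2 and 10.6, 9.55 and 10.1 CPM in WT, and fell by 0.90 ± 0.15 (adjusted p = 0.000211). PSBO1 had 33.6, 22.6 and 16.7 CPM in rh27-2 and 44.3, 52.1 and 47.5 CPM in WT, also without overlap, and fell by 0.98 ± 0.27 (adjusted p = 0.0256). PSBQ1, PSAK, PSAN and PSAO fell by 0.68, 0.63, 0.94 and 0.77, of which PSAN had 6.66, 3.41 and 2.99 CPM in rh27-2, against 7.76, 7.99 and 9.25 CPM in WT. PSAO had 5.30, 3.82 and 2.06 CPM in rh27-2, against 5.71, 6.56 and 6.77 CPM in WT, without overlap, at -0.77 ± 0.28 (adjusted p = 0.0361). The calls of PSBO1, PSBQ1, PSAK, PSAN and PSAO were each lost without rh27-2 library 2 and without at least 1 WT library.

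A pair of photosystem I genes rose in root tips while PSAK, PSAN and PSAO fell. PSAD2 had 2.57, 1.81 and 1.28 CPM in rh27-2, against 0.537, 0.874 and 0.907 CPM in WT, a log2 fold change of 1.295 ± 0.34 (adjusted p = 0.00522). PSAL, the subunit at the docking face for mobile antenna, had 8.29, 5.53 and 2.84 CPM in rh27-2 and 1.42, 1.19 and 2.36 CPM in WT, and rose by 1.74 ± 0.46 (adjusted p = 0.0139). Neither gene's groups overlapped, but the PSAL call was lost without WT library 1 or 2. PSBO2 had 16.5, 10.1 and 9.12 CPM in rh27-2 and 7.27, 9.18 and 9.01 CPM in WT and was not called, at 0.49 ± 0.23 (adjusted p = 0.106). PSAF had 17.2, 9.61 and 8.53 CPM in rh27-2 and 14.1, 15.7 and 15.4 CPM in WT root tips. Its rh27-2 library 1 was above all WT libraries and the other two below, and it was not called at -0.36 ± 0.27 (adjusted p = 0.289).

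As sums, the balance between classes shifted in root tips, though single genes made up large parts of the sums. LHCB1.3 had 31.0 to 86.5 CPM in rh27-2 and 28.7 to 30.7 CPM in WT, within mean antenna sums of 157 and 121 CPM. PSBR had 25.0 to 38.6 CPM in rh27-2 and 95.4 to 119 CPM in WT, within mean photosystem subunit sums of 158 and 274 CPM. A shift over all genes of a class was not tested. Antenna transcripts stood to photosystem subunit transcripts at 1.09, 0.979 and 0.848 in rh27-2 root tips, against 0.447, 0.435 and 0.442 in WT root tips. Photosystem subunit transcripts stood to Rubisco and Calvin cycle transcripts at 1.77, 1.77 and 2.58 in rh27-2, against 6.18, 5.45 and 5.29 in WT. For both ratios the groups were well apart, and all 3 rh27-2 libraries lay on the same side although their total levels differed, with the sum of all members at 576, 361 and 253 CPM in rh27-2, against 405, 487 and 441 CPM in WT. In shoot apices the ratio of antenna to photosystem subunits was lower in rh27-2 than in WT, and in root tips it was higher.

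The make-up of several gene families also differed between rh27-2 and WT. PSAD2 supplied 15.1%, 16.6% and 18.2% of PSAD counts in rh27-2 shoot apices, against 26.0%, 30.0% and 28.5% in WT shoot apices. In root tips its share ran the other way, at 18.3%, 22.6% and 22.4% in rh27-2 and 5.95%, 7% and 8.24% in WT. The groups were apart in both organs, and the rh27-2 shares of both organs fell in one range of 15.1 to 22.6%.

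LHCB4.2 supplied 11.2%, 13.4% and 14.9% of LHCB4 counts in rh27-2 shoot apices, against 21.1%, 27.4% and 35.9% in WT, and 25.3%, 21.7% and 20.7% in rh27-2 root tips, against 41.9%, 39.8% and 33.5% in WT. Its share was thus lower in rh27-2 in both organs. The RBCS1A share of Rubisco small subunit counts was 50.1%, 50.97% and 54.3% in rh27-2 shoot apices, against 58.1%, 65.3% and 72.6% in WT, and 60.2%, 68.1% and 62.4% in rh27-2 root tips, against 93.6%, 91.5% and 99.1% in WT. Here too neither organ's groups overlapped. GAPA1 made up 38.9%, 42.1% and 46.9% of the GAPA1 and GAPB counts in rh27-2 shoot apices, against 54.6%, 58.6% and 63.7% in WT, and its root groups overlapped.

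Of the other pairs, the PSBO, PSBQ and PSAH shares were apart between genotypes in root tips only, and the PSAE shares overlapped in both organs. PSBO2 supplied 32.9%, 30.9% and 35.3% of PSBO counts in rh27-2 root tips, against 14.1%, 15.0% and 15.9% in WT, while its shoot shares overlapped between genotypes. PSBQ2 supplied 61.7%, 68.0% and 63.4% of PSBQ counts in rh27-2 root tips, against 49.5%, 50.2% and 51.7% in WT. PSAH2 supplied 36.7%, 37.2% and 22.2% of PSAH counts in rh27-2 root tips. In WT root tips it supplied 9.62%, 11.1% and 2.70%, from 5, 4 and 1 counts. LHCB1.1 supplied 3.48%, 3.72% and 5.34% of the counts of LHCB1.1, LHCB1.2 and LHCB1.3 in rh27-2 shoot apices, against 11.5%, 14.6% and 9.02% in WT. Its root shares ran the other way, at 4.33%, 0.444% and 1.38% in rh27-2 and 0.336%, 0% and 0% in WT, from few counts. Reads of these copies may be assigned to one another. No share was tested, since 3 against 3 libraries cannot reach 0.05 by permutation.

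**Figure D5:**
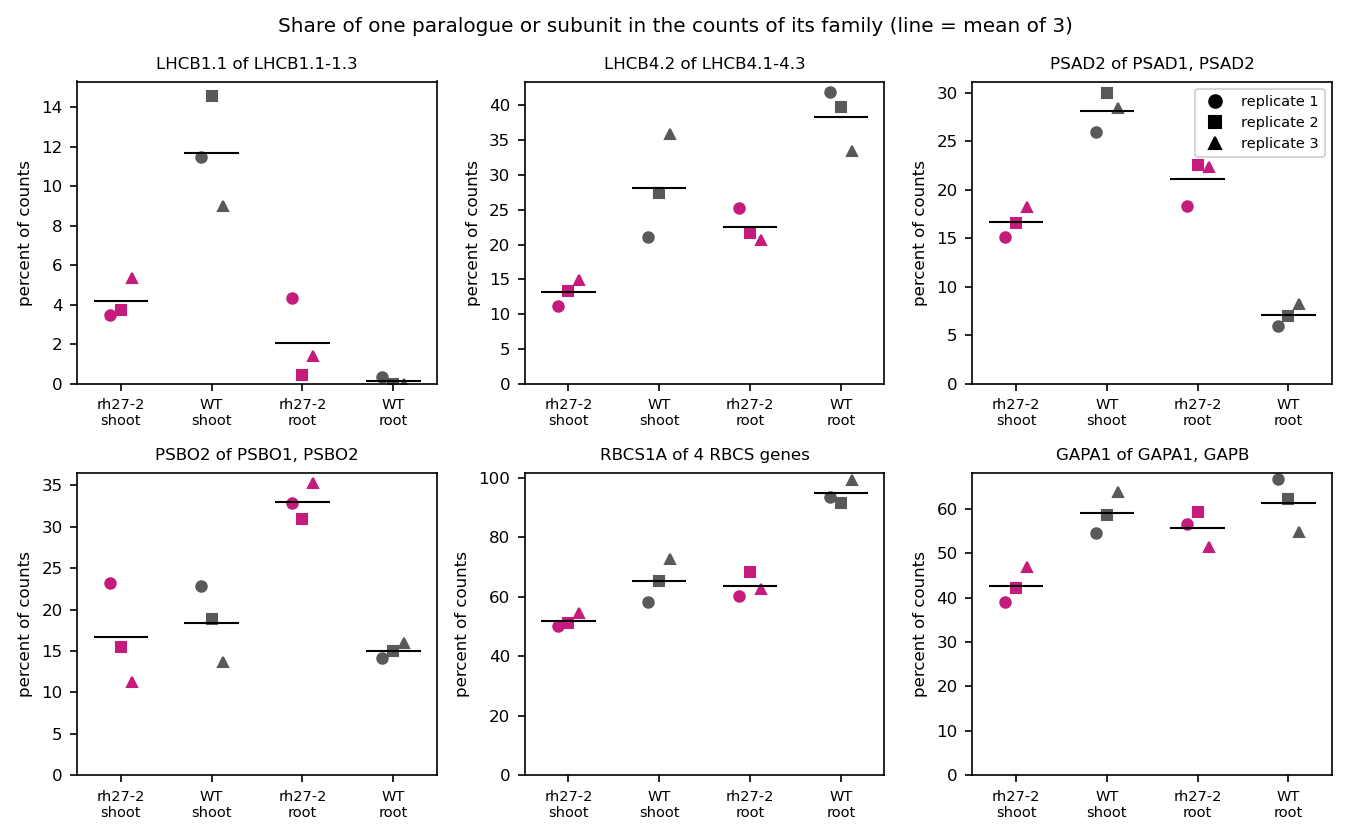
Share of 1 gene in the counts of its family, in percent, in each of the 12 libraries, with rh27-2 left of WT within shoot apices and within root tips; symbols give the replicate number and lines the mean of 3. The PSAD2 share is below WT in rh27-2 shoot apices and above WT in rh27-2 root tips, while the LHCB4.2 and RBCS1A shares are below WT in rh27-2 in both organs.

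The difference between the organs was tested as an interaction in a fit over the 12 libraries, as the root fold change minus the shoot fold change. Of 49 genes 21 had a more positive change in root tips and 1 a more negative one (21.4% and 22.6% of all tested genes). The 21 comprised 4 of 6 photosystem I antenna genes, 8 of 14 photosystem II antenna genes, 3 of 12 photosystem I subunit genes, 1 of 10 photosystem II subunit genes and 5 of 7 Rubisco and Calvin cycle genes. PSAD2 had the lowest p, with a difference of 3.22 ± 0.34 on the log2 scale (adjusted p = 3.31e-05), the sum of its fall in shoot apices and its rise in root tips. LHCB2.1 followed at 6.97 ± 0.76 (adjusted p = 4.79e-05), then LHCB1.2 at 6.24 ± 1.04, LHCB1.1 at 8.38 ± 1.42 and LHCB1.3 at 2.47 ± 0.44 (adjusted p = 0.000703, 0.000801 and 0.00113). For LHCB1.1, LHCB1.2 and LHCB2.1 the size depends on the prior count, since WT root tips held 2, 9 and 8 counts of them. With near-identical copies summed before the fit, the difference was 2.77 ± 0.46 for LHCB1.1, LHCB1.2 and LHCB1.3 together (adjusted p = 0.000699), 7.49 ± 0.85 for LHCB2.1 and LHCB2.2 (adjusted p = 5.97e-05), where the prior count matters too, and 4.97 ± 1.08 for RBCS1B, RBCS2B and RBCS3B (adjusted p = 0.00348). PSBR was the 1 gene with a more negative change in root tips, at -1.22 ± 0.33 (adjusted p = 0.0117).

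Of 14 tested genes that make the chlorophyll bound by the antenna, 13 fell and 1 rose in shoot apices, where 19.8% of all tested genes were called lower and 21.1% higher. PORB, a light-dependent protochlorophyllide oxidoreductase, averaged 89.8 CPM in rh27-2 and 619 CPM in WT and fell by 2.85 ± 0.30 on the log2 scale. CHLP, CRD1 and CHLM, which act on the phytol tail and on magnesium protoporphyrin, fell by 1.80, 1.61 and 1.57. HEMA2, a glutamyl-tRNA reductase gene named because it was the exception, rose by 0.94 ± 0.24. In root tips 10 of 14 fell and 1 rose (30.9% and 31.3% of all tested genes). The lowest adjusted p-values, in order, belonged to CHLM at -1.88 ± 0.14, HEMA1 at -0.76 ± 0.08 and CHLH, a subunit of magnesium chelatase, at -1.45 ± 0.16. The exception there was PORC, at 1.35 ± 0.35, which passed the low-count filter through its rh27-2 libraries only, as CHLI2 did through its WT libraries.

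Of 8 genes for antenna relatives and antenna insertion, 5 fell in shoot apices and none rose (19.8% of all tested genes were called lower there), among them CPSRP43, CPSRP54 and ALB3, which deliver LHC proteins to the thylakoid, at -1.57, -1.40 and -1.01. In root tips 4 of 7 fell, beside 30.9% of all tested genes, with the same 3 genes at -0.80, -0.34 and -0.61, and 1 rose. In the electron transport and ATP synthase list 4 of 9 genes fell in shoot apices (19.8% of all tested genes), led by the plastocyanin gene PETE1 at -2.43 ± 0.19. Of the 9 genes 1 rose and 2 fell in root tips (31.3% and 30.9% of all tested genes), where the leaf ferredoxin gene FD2 had -1.07 ± 0.12. Sigma factors, which direct the plastid RNA polymerase, fell in 5 of 6 cases in shoot apices, with SIG4 at -2.80 ± 0.26 and SIG1 at -1.34 ± 0.13, and in 1 of 5 cases in root tips, where SIG5 had -0.87 ± 0.21, beside the same 19.8% and 30.9%.

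A list of 12 further Calvin cycle genes was set beside the Rubisco and GAP genes. In shoot apices 2 of 12 fell and none rose, beside 19.8% of all tested genes called lower: CP12-1, a small regulator that binds GAPDH, at -0.89 ± 0.21, and the aldolase gene FBA1 at -1.35 ± 0.39. In root tips 6 of 10 rose and 2 fell (31.3% and 30.9% of all tested genes). FBA2, PRK and GAPA2 passed the low-count filter there through their rh27-2 libraries only, so a difference was built into their being tested. The aldolase gene FBA2 averaged 14.1 CPM in rh27-2 root tips and 0.374 CPM in WT root tips, a log2 fold change of 5.27 ± 0.52 (adjusted p = 0.00014). GAPA2 rose by 2.05 ± 0.44 and the transketolase gene TKL1 by 0.36 ± 0.05, while the triosephosphate isomerase gene TIM had -0.28 ± 0.05 and CP12-1 had -1.002 ± 0.23.

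Among light signalling genes and the GLK activators, 1 of 12 rose and 4 fell in shoot apices (21.1% and 19.8% of all tested genes). GLK1 averaged 21.1 CPM in rh27-2 and 48.4 CPM in WT shoot apices and fell by 1.26 ± 0.16 (adjusted p = 0.00185). GLK2 averaged 44.8 CPM in rh27-2 and 78.2 CPM in WT and fell by 0.87 ± 0.21 (adjusted p = 0.0154). The blue light receptor gene CRY1 fell by 0.61 ± 0.09, and PIF3, a repressor of greening in the dark, rose by 0.90 ± 0.22. In root tips 5 of 11 rose and 4 fell, beside 31.3% and 30.9% of all tested genes: PIF5, PIF1 and PIF3 rose by 4.35, 1.25 and 0.81, HY5 and GLK2 fell by 0.49 and 0.68, and GLK1, at 0.518 CPM in rh27-2 and 0.603 CPM in WT, was not called. PIF5 passed the low-count filter in root tips through its rh27-2 libraries only. Of these lists, none was chosen without earlier results of the same libraries in view.

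Markers of other cell types moved beside these genes, and their part in the results was not tested. In shoot apices all 4 tested shoot apex markers rose (21.1% of all tested genes were called higher and 19.8% lower), with the meristem gene STM at 2.27 ± 0.23, and the 6 markers summed to 174 to 223 CPM in rh27-2 and 33.7 to 58.0 CPM in WT. Leaf blade markers fell in 3 of 8 cases (YAB1 by 1.25, YAB3 by 1.04 and AS1 by 0.83) and summed to 343 to 415 CPM in rh27-2 and 474 to 590 CPM in WT. They did not move as one: 6 of the 8 had a negative and 2 a positive log2 difference, and none was called higher. KAN1 had 23.2 to 33.2 CPM in rh27-2 and 17.2 to 20.7 CPM in WT, and YAB5 had 16.7 to 29.3 and 13.9 to 20.2 CPM. The 3 trichome markers fell, of which GL1 and MYB23 passed the low-count filter through their WT libraries only, and they summed to 3.21 to 4.22 CPM in rh27-2 and 17.6 to 37.8 CPM in WT. Of 3 guard cell markers 1 fell (FAMA by 2.01), and they summed to 8.91 to 13.8 CPM in rh27-2 and 23.1 to 34.2 CPM in WT. No marker of these 4 lists was at 0 in either shoot group. Root tip markers summed to 79.8 to 88.5 CPM in rh27-2 and 92.3 to 102 CPM in WT shoot apices, where 2 of 9 were at 0 in WT and 1 of 5 tested fell. SCR, with 57.2 to 65.4 CPM in rh27-2 and 66.0 to 78.0 CPM in WT, and SHR, with 18.0 to 19.7 and 18.4 to 20.6 CPM, made up most of that sum. The gene that fell, WOX5, passed the low-count filter through its WT libraries only. WOX5 had 1.58 to 7.13 CPM in WT shoot apices and 0.499 to 1.15 CPM in WT root tips, so it did not mark root tips here. CASP1, which was not called, passed through its rh27-2 libraries only.

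In root tips the shoot apex markers summed to 15.3 to 17.7 CPM in rh27-2 and 3.03 to 4.35 CPM in WT, with 3 of 6 at 0 in WT and none at 0 in rh27-2, and both tested genes rose (31.3% of all tested genes were called higher and 30.9% lower), KNAT1 by 1.95 and CUC2 by 3.28, although CUC2 passed the low-count filter through its rh27-2 libraries only. Leaf blade markers summed to 121 to 129 CPM in rh27-2 and 93.2 to 102 CPM in WT, with 2 of 4 tested genes higher and 1 lower. PHB alone had 82.0 to 88.0 CPM in rh27-2 and 48.4 to 53.0 CPM in WT, and without it the sum was 38.4 to 43.6 CPM in rh27-2 and 44.3 to 49.0 CPM in WT. The blade-identity genes YAB1 and YAB3 averaged 0.259 and 0.679 CPM in rh27-2 root tips and had no count in WT root tips. YAB1 rested on library 2, with 1, 14 and 0 counts in rh27-2, and YAB3 had 6, 21 and 13. YAB2 and YAB5 had 3 counts each over the rh27-2 root libraries, and 1 and 0 over the WT root libraries. Guard cell markers summed to 1.18 to 1.86 CPM in rh27-2 and 0.125 to 0.544 CPM in WT, and FAMA was at 0 in both. Trichome markers summed to 12.5 to 14.5 CPM in rh27-2 and 30.9 to 32.1 CPM in WT, and 2 of 2 tested fell. The sum came from GL3 and MYB23 alone, as GL1 had 0 counts in root tips. GL3 had 22.8 to 24.3 CPM in WT root tips and 3.88 to 10.7 CPM in WT shoot apices. MYB23 had 7.80 to 8.41 and 9.56 to 18.1 CPM there. The sum in root tips is therefore not a measure of trichomes. Root tip markers summed to 338 to 382 CPM in rh27-2 and 507 to 553 CPM in WT, with 4 of 9 higher and 2 lower, and WOX5 passed the low-count filter through its rh27-2 libraries only. CASP1, a gene of the endodermis, alone had 142 to 164 CPM in rh27-2 and 321 to 339 CPM in WT, and without it the sum was 197 to 221 CPM in rh27-2 and 184 to 214 CPM in WT. In rh27-2 root libraries 1, 2 and 3 the leaf blade sum, mostly PHB, was 126, 121 and 129 CPM and the shoot apex sum 17.7, 15.6 and 15.3 CPM. The photosynthesis genes summed to 576, 361 and 253 CPM in these libraries. A relation between these sums was not tested.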

How the data were processed

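Each mRNA file holds raw counts per locus, as deposited by the authors, with no header. TopHat2, HTSeq, edgeR and Bowtie2 and the TAIR10 build are named in the submitters' processing notes without roles or versions; the strand of counting is not given in the sources used here. The 12 small RNA libraries were not used here. All 142 listed loci matched by locus tag in RefSeq's TAIR10.1 gene table, used for names, span lengths and overlaps only.

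Counts of all loci were tested with edgeR 4.0.16 in R 4.3.3 (filterByExpr with a minimum count of 10, TMM, robust quasi-likelihood fits, Benjamini-Hochberg adjustment over all tested genes at 0.05), with 6 libraries per organ fit and 12 libraries for the interaction and the organ comparison. CPM levels are on a 12-library TMM scale. Log2 fold changes on the scale of the organ fits minus those on this scale were -0.06 in shoot apices and less than that in size in root tips. The scripts were tested on simulated data. Alternatives were DESeq2 1.42.0, other scalings and filters, summed paralogues, a replicate block, a 12-library fit and each library left out.

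The members and lists were chosen with earlier results of these data known. Values per library are given, in each class and organ, for the 2 lowest and the highest fold changes, the most abundant gene, genes called against their class, and the 5 lowest interaction p-values. A few others (PSAD1, PSBS, GAPB, RBCS1B, RBCS2B, RBCS3B, LHCA5, LHCB1.1 and LHCB1.4 in root tips, PORC, HEMA2, PHB, CASP1 and genes named for their route through the filter) were added after their values were seen.

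Deviations of same-numbered rh27-2 and WT libraries from their group means correlated at 0.42, 0.38 and 0.15 in shoot apices, so the numbers were taken to pair there. For number 3 this is uncertain, since rh27-2 library 3 correlated at 0.27 with WT library 2. In root tips same-numbered libraries correlated at 0.05, 0.01 and -0.03. No pair of libraries in a group was close enough to be a duplicate. Intervals and floors cover counting error only.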

Additional observations from a re-analysis of the deposited data

Results flagged for a closer look

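For 22 genes the change in rh27-2 differed between the organs by the interaction test of edgeR (root log2 fold change minus shoot log2 fold change, adjusted p below 0.05), and each is given with that difference. In the photosystem I antenna it was 1.61 for LHCA1, 1.54 for LHCA2, 1.302 for LHCA3 and 1.29 for LHCA4, genes that fell in shoot apices and were not called in root tips. In the photosystem II antenna it was 8.38 for LHCB1.1, 6.24 for LHCB1.2, 2.47 for LHCB1.3, 7.79 for LHCB1.4, 6.97 for LHCB2.1, 10.12 for LHCB2.2, 2.05 for LHCB3 and 1.34 for LHCB5. The sizes for LHCB1.1, LHCB1.2, LHCB1.4, LHCB2.1 and LHCB2.2 depend on the prior count of the fit, since each had under 10 counts in the 3 WT root libraries together. With near-identical copies summed the difference was 2.77 for LHCB1.1, LHCB1.2 and LHCB1.3 together and 7.49 for LHCB2.1 and LHCB2.2 together. LHCB1.4 rested on rh27-2 root library 1: without it the difference was 3.01 and was not called.

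Among photosystem I subunits the difference was 3.22 for PSAD2, 3.18 for PSAH2 and 2.67 for PSAL. Among photosystem II subunits it was 1.24 for PSBQ2 and -1.22 for PSBR, the 1 gene with the more negative change in root tips. Among Rubisco and Calvin cycle genes it was 2.32 for RBCS1A, 5.00 for RBCS2B, 4.97 for RBCS3B (4.97 with RBCS1B, RBCS2B and RBCS3B summed), 3.17 for GAPA1 and 2.44 for GAPB. The calls of LHCA4, LHCB1.4 and GAPB were lost when some single library was left out, and the other 19 held.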

How the results depend on the processing

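In shoot apices 36 to 45 genes were called lower and none higher under every alternative that kept all libraries. DESeq2 gave 38 (19.6% of all tested genes), the replicate block 45 (22.7%) and the fit of 12 libraries 36 (22.4%). Other scalings and no filter gave 37 each (15.5 to 24.5%). Near-identical paralogues summed gave 38 (19.8%). There each copy took its family value, so LHCB1.5, which has no counts, is among the 38. Leaving out 1 library gave 20 to 42 (10.2 to 20.3%). In root tips 9 rose and 8 fell in the fit as reported (31.3% and 30.9% of all tested genes). DESeq2 gave 14 and 9 (24.5% and 23.7%), and no low-count filter 11 and 7 (26.2% and 25%). The fit of 12 libraries gave 13 and 7 (23.5% and 20.2%), and the replicate block 9 and 9 (30.8% and 30.6%). Leaving out 1 library gave 9 to 16 higher and 2 to 17 lower (28.6 to 30.2% and 27.8 to 29.9% of all tested genes). LHCB6 in root tips changed side with the library left out: it stood at 0.01 in the fit as reported, at -0.69 and called lower (adjusted p = 0.01997) without rh27-2 root replicate 1, and at 0.33 without replicate 3; the cause was not tested. The interaction gave 18 to 28 genes with a more positive change in root tips under all alternatives, and 1 with a more negative one. The shares of all tested genes were 16.2 to 33.1% and 16 to 24.8%. With the replicate block the counts were 23 and 1 (22.6% and 23.6%). The 49 organ differences kept their calls, the block included. In root tips the block added PSBP1 to the genes that fell, and in the interaction it added PSBO2 and RBCS1B; it changed no other call than these and the shoot calls named in the report. Root counts limit what could be tested: 9 genes were under the filter, and 4 had no WT root count.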
